A study of Homo sapiens with 30 samples.

Results

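Dense CTCF-only regions are stretches of the genome that were called with an antibody against CTCF but with no antibody against MBD3, TET1 or TET2, and that lay close to another CTCF site. They were chosen by the peak calls of cells without the auxin indole-3-acetic acid (IAA). Rows of a peak list that shared 1 bp were joined into a region. A CTCF region on chromosomes 1 to 22 or X was a member when it shared no base with an MBD3, TET1 or TET2 region and when its summit lay within 10 kb of the summit of another CTCF region. This gave 9846 members among 42300 CTCF regions on these chromosomes, or 23.3%, of 42925 CTCF regions in all. Of the 42300, 64.1% shared no base with the other proteins and 39.1% had another CTCF summit within 10 kb. Both conditions define the members, so neither these shares nor the members' distances to other summits are findings.

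The study used chromatin immunoprecipitation with sequencing in HEK293T, an established human embryonic kidney line, whose CTCF had been edited so that IAA triggers its degradation. All cells, with or without IAA, were edited and were transfected with the plasmids pcDNA3.1-ScFv-miniIAA7-mEGFP and pcDNA3.1-AtAFB2-mCherry, which supply the degradation system. The groups were CTCF, MBD3, TET1, TET2 and input from cells kept for 72 h with 0.5 mM IAA, and the same 5 from cells kept without it, with 3 samples in each of the 10 groups. The treatment label of the cells without IAA reads DMSO, while the protocol speaks of fresh medium alone. The sources used here do not say whether the edited cells were 1 clone or whether the 3 samples came from separate cultures. Since the 3 samples of a group were pooled into 1 of 8 peak lists, no value has a replicate error, no comparison was tested, and the intervals given cover counting error over regions alone. The number of reads behind the lists is unknown. The 4 lists with IAA held 63 CTCF, 50 MBD3, 325 TET1 and 3022 TET2 regions, against 42925, 6608, 16246 and 1326 without IAA.

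CTCF is a zinc-finger protein that binds a long DNA motif and, with the ring-shaped cohesin complex, stops loop extrusion and so anchors chromatin loops and domain boundaries. CTCF sites often come in clusters, and clustered sites are a known feature of domain boundaries and of gene families with many alternative promoters. MBD3 belongs to NuRD, a complex that moves nucleosomes and removes acetyl groups from histones, and TET1 and TET2 are enzymes that oxidise methylated cytosine. A region counts as CTCF-only here where no call for the other proteins was made, which does not show that they were absent.

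The members were mostly weak CTCF regions. Their median fold enrichment, the peak caller's ratio of signal to background as deposited by the authors, was 9.08 (quartiles 5.98 and 14.2), within a range of 1.74 to 53.5. The median over all CTCF regions on these chromosomes was 13.6 (quartiles 7.43 and 24.3), and 72.5% of the members lay below it. Only 980 members, or 9.95%, reached a fold of 20, against 75.1% of the 6694 CTCF regions that also had a close neighbour but carried another protein. At the low end, 1567 members, or 15.9%, had a fold under 5. A −log10 q of at least 10 was nevertheless reached by 7046 members, or 71.6%. The fold takes stepped values, with 4206 distinct ones among the members, and the commonest, 8.07, was held by 84 of them.

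The members were close in strength to CTCF-only regions that had no CTCF neighbour. The members' median fold of 9.08 had a 95% interval of 8.91 to 9.12, against 9.58 (9.47 to 9.58) for the 17278 isolated CTCF-only regions. The order of these medians turned when rows under 5-fold were left out of the lists without IAA, with 10.98 for members and 10.63 for isolated regions. That cut also applied to MBD3, TET1 and TET2 rows, and so could change which regions counted as CTCF-only. By −log10 q the order also stood the other way round, with 18.8 (18.3 to 19.3) for members and 18.3 (17.7 to 18.8) for isolated regions, intervals that overlap. Median widths were 240 bp for members and 234 bp for isolated CTCF-only regions. Both classes stood far from CTCF regions with another protein, whose median fold was 27.2 with a close neighbour and 27.9 without. Members built from several overlapping rows numbered 149, or 1.51%, against 193, or 1.12%, of isolated CTCF-only regions and 3.79% of regions with a close neighbour and another protein.

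**Figure D1:**
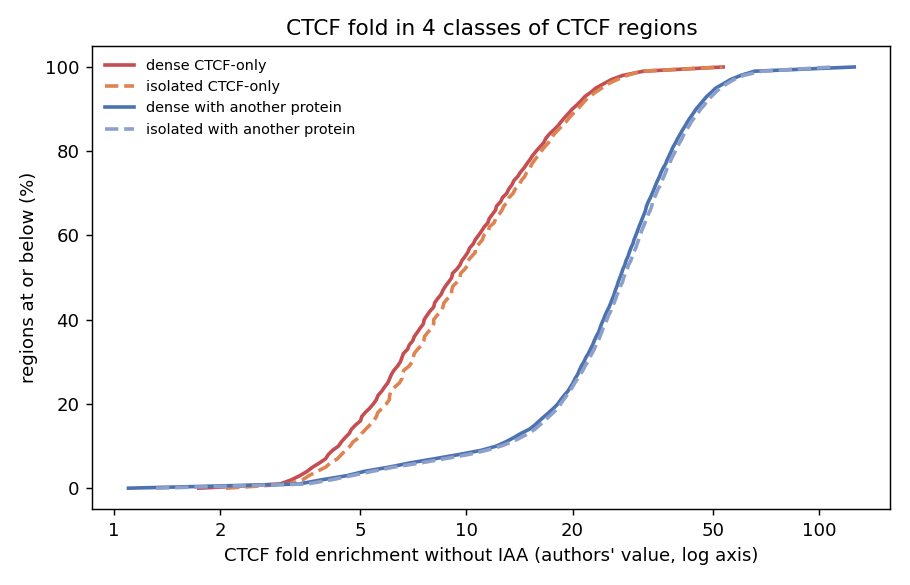
Cumulative share of regions (percent) by CTCF fold without IAA (log axis) in 4 classes: dense CTCF-only (9846 regions), isolated CTCF-only (17278), dense with another protein (6694) and isolated with another protein (8482). The solid and dashed curves of a pair run close together, with medians of 9.08 and 9.58 for the CTCF-only classes and 27.2 and 27.9 for the others.

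In the strong strata fewer CTCF regions were CTCF-only than in the weak ones, and at each level of strength a smaller share of crowded than of isolated regions was CTCF-only. When the 42300 regions were cut into 5 equal strata of fold, 31.0% of the members fell in the weakest stratum and 2.18% in the strongest, which began at 27.2-fold. Within the weakest stratum, 89.0% of regions with a close CTCF neighbour were CTCF-only, against 91.2% of isolated ones. In the second stratum both shares were higher than in the weakest, at 93.1% and 95.0%, and in the third they were 79.4% and 85.6%. In the fourth stratum, between 17.4- and 27.2-fold, these shares were 38.2% and 49.1%, and in the strongest they were 6.05% and 9.34%. The share was the lower of the pair for regions with a close neighbour in all 5 strata. Over all strata, 59.5% of the 16540 regions with a close neighbour and 67.1% of the 25760 isolated ones were CTCF-only. These shares use the calls that chose the members and are given as a description.

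The strongest members were few and lay on several chromosomes. The highest fold was 53.5, at chr3:195586158-195586589 in hg19, the build of all coordinates here, which count from 1. Its nearest CTCF region, with TET1, stood at 17.1-fold and 3762 bp away. The next was chr5:168374264-168374685 at 46.2-fold, beside a CTCF-only region of 4.30-fold at 887 bp. It was followed by chr4:16918339-16918694 at 41.9-fold, with a CTCF-only region of 8.07-fold at 2526 bp. The region chr2:137136356-137136687 had 41.4-fold and a neighbour with TET1 of 22.8-fold at 5896 bp. The fifth, chr5:142260019-142260410, also had 41.4-fold and a neighbour with TET1 of 30.8-fold at 7977 bp. Picking these 5 for their fold made it likely that each was stronger than its neighbour, so that is no finding. None of the 5 was called in any list with IAA, and no such list called more than 0.128% of all CTCF regions. A count of none among 5 regions is therefore no finding. The genes at these positions are not given, since the annotation at hand was of another genome build.

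The distance to the nearest other CTCF summit was used to choose the members, so its distribution is a description. The median distance to the nearest other CTCF summit was 3945.5 bp (quartiles 1868 and 6626), and the shortest was 231 bp. It was 3866 bp for regions with a close neighbour that carried another protein. By distance, 213 members had their neighbour within 500 bp, which is 426 members per kb and the lowest density of the 7 bins. It was highest, at 1926 per kb, from 500 to 1000 bp, where 963 members lay. From there it declined over the bins to 1511 per kb at 1000 to 2000 bp and 710 per kb at 8000 to 10000 bp. Rows sharing 1 bp had been joined, so close summits of overlapping rows were not counted apart. With single rows the median distance was 3600 bp.

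Members with a very close neighbour were the weakest. Their median fold was 5.34 within 500 bp and 7.15 from 500 to 1000 bp, against 8.86 from 1000 to 2000 bp and between 9.36 and 9.73 in the 4 bins beyond. Regions with another protein were also weakest there, with medians of 15.5 within 500 bp, 23.9 from 500 to 1000 bp and 27.9 at 8000 to 10000 bp. The closest pair of members lay at chr1:52344524-52344724 and chr1:52344895-52345162, 231 bp apart by summit, at 2.78- and 3.69-fold. The next 2 pairs were on chromosome 19. In chr19:41304022-41304257 and chr19:41304418-41304608 the summits were 329 bp apart, with folds of 5.22 and 4.36. In chr19:12511195-12511374 and chr19:12511569-12511754 they were 331 bp apart, with folds of 2.94 and 2.96. All 6 of these regions lay under the members' median fold.

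**Figure D2:**
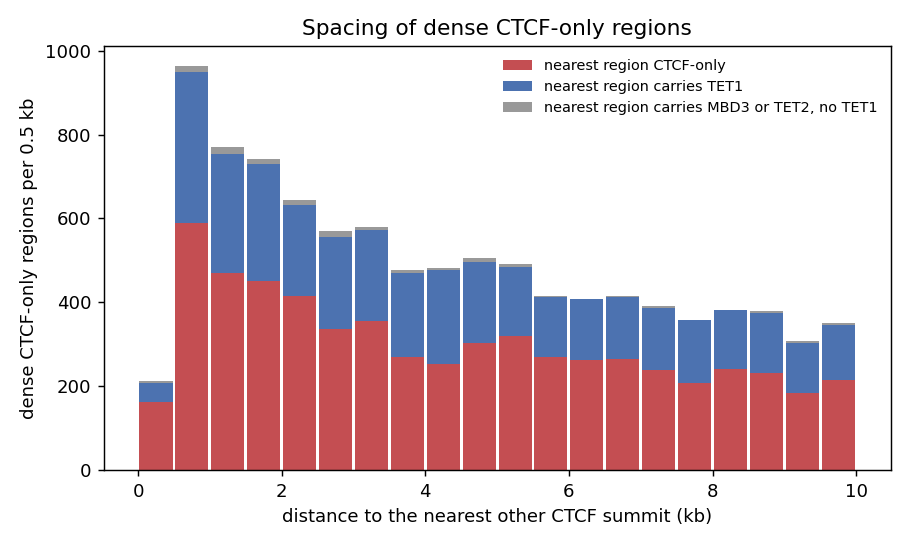
Number of dense CTCF-only regions (y axis, per 0.5 kb) by distance to the nearest other CTCF summit (x axis, kb), stacked by what that nearest region carries. Counts are lowest within 500 bp, where 213 members lie, highest between 500 and 1000 bp, where 963 lie, and lower again toward 10 kb. Overlapping rows were joined, so their summits are not counted apart.

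Median fold and the share of neighbours with TET1 were close on either side of the 10 kb limit. The 351 members between 9500 and 10000 bp had a median fold of 9.08, and the nearest CTCF region carried TET1 for 37.3% of them. The 303 CTCF-only regions in the next 500 bp outside also had a median of 9.08, with 36.0%. The median −log10 q was 19.8 inside and 17.9 outside. The last members inside were chr11:76812272-76812497 at 8.68-fold and chr11:1526779-1526935 at 4.10-fold, both at 10000 bp. The first regions outside were chr1:11332777-11332941 at 3.35-fold, 10001 bp from its neighbour, and chr17:49409869-49410047 at 4.38-fold, at 10004 bp.

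The neighbours of members were mostly members too. The nearest other CTCF region was CTCF-only for 6051 members, or 61.5%, where 59.5% of all regions with a close neighbour were. It carried TET1 for 3666 members, or 37.2% (36.3% to 38.2%), beside a share of 34.6% among all CTCF regions and 39.2% among those with a close neighbour. For regions that themselves carried TET1 and had a close neighbour, the neighbour carried TET1 in 42.2% (41.0% to 43.4%). MBD3 was called at the nearest region of 931 members, or 9.46%, beside 8.76% of all CTCF regions. TET2 was called at the nearest region of 121 members, or 1.23%, beside 1.10%. These shares were thus near the level of the whole CTCF list. Within 500 bp the neighbour carried TET1 for 21.6% of members, and in each of the 6 farther bins for between 37.2% and 38.3%.

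A member's strength varied little between neighbours that were CTCF-only and neighbours with TET1. Beside a CTCF-only region its median fold was 9.08, beside a region with TET1 but not MBD3 it was 9.07, and beside a region with both it was 8.57. The neighbours themselves differed widely, with medians of 9.08, 25.4 and 37.5 in the same order. The neighbour was the stronger region for 49.6% of members beside another CTCF-only region, 89.8% of those beside TET1 alone and 96.6% of those beside MBD3 and TET1. The 121 members beside TET2 had a median of 7.19, and their neighbours one of 6.20. Over all members the nearest region was stronger in 64.8%.

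**Figure D3:**
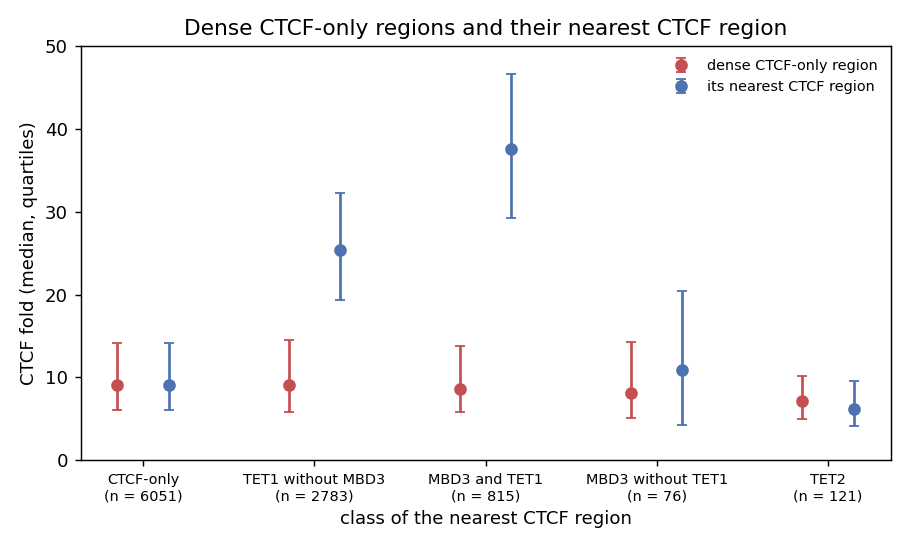
Median CTCF fold without IAA, with quartiles as bars, of dense CTCF-only regions and of their nearest CTCF region, by the class of that nearest region (TET2 includes any region with TET2). The members' medians stay between 7.19 and 9.08, while those of the neighbours range from 6.20 to 37.5.

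Many members were paired with one another. In 2696 pairs each member was the other's nearest CTCF region, at a median of 3626 bp. Sorted by fold, the stronger of the pair had a median of 13.1 and the weaker one of 6.57, a gap that the sorting itself makes. Spearman's rho between the folds of a pair, in order of position, was 0.074 over the 2696 pairs, which come from 1 pooled list.

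Some strong members had a nearest CTCF region that carried both MBD3 and TET1. The 3 of highest fold with such a neighbour, without TET2, were chr1:203307633-203307886, chr2:237089578-237089859 and chr7:28966496-28966974. The first had 37.4-fold, 1645 bp from a region of 41.7-fold, with 4 other CTCF summits within 10 kb. The second had 36.7-fold and was the stronger of its pair, 2833 bp from a region of 25.8-fold. The third had 35.9-fold, 4397 bp from a region of 62.0-fold. In the strongest stratum of fold, which holds all 3, only 673 of 8460 CTCF regions were CTCF-only.

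TET1 regions were often near members without touching them, and MBD3 and TET2 regions less often. An edge of a TET1 region lay within 1000 bp of 591 members, or 6.002%, and within 10000 bp of 4494, or 45.6%. For isolated CTCF-only regions these shares were 0.295% and 1.57%. MBD3 lay within 10000 bp of 14.6% of members and 2.29% of isolated regions, and TET2 within 10000 bp of 2.81% and 0.723%. By the rule, isolated regions had no CTCF summit within 10 kb, with another protein or without. The gaps between members and isolated regions are therefore no finding for any of the proteins. Few members were narrow misses of the rule: 9 had a TET1 edge within 100 bp, 8 an MBD3 edge and 4 a TET2 edge.

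The crowding was usually slight. Of the 9846 members, 7278, or 73.9%, had 1 other CTCF summit within 10 kb, 2024 had 2, 442 had 3 and 102 had 4 or more. The median fold of these groups was 9.19, 8.70, 7.59 and 8.22, and thus did not follow the number of summits throughout. Joining successive summits no more than 10 kb apart gave 7050 runs of 2 or more CTCF regions. Of these runs 5322, or 75.5%, were pairs, 1270 held 3 regions, 331 held 4, 121 held 5 to 9 and 6 held 10 or more, up to 27.

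The members were divided almost evenly between runs of their own kind and mixed runs. Runs of members alone numbered 2341 and held 5064 members, or 51.4%, with a median fold of 9.30. Mixed runs numbered 3713 and held the other 4782, at 8.79-fold. TET1 was called in 3613 of the mixed runs, MBD3 in 1045 and TET2 in 127. A mixed run by definition holds a region with another protein. Of the 6694 such regions with a close neighbour, 6480 carried TET1, 1680 MBD3 and 199 TET2, so these counts are a description. In just 386 mixed runs, or 10.4%, was a member the strongest region. Among the 2427 mixed runs of 2 regions, the member had a median of 9.08-fold and its partner 27.3-fold, and the member was stronger in 248, or 10.2%. The share of runs made of members alone was 38.0% for pairs, 21.2% for runs of 3, 13.3% for runs of 4, 4.13% for runs of 5 to 9 and 16.7%, or 1 of 6, for runs of 10 or more. A run of members alone needs every region to be CTCF-only, so this share depends on length.

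The run with most members was made of members alone. It lay at chrX:56790265-56815572 and held 11 regions over 25.1 kb. As the rule for members requires, no MBD3, TET1 or TET2 region without IAA touched any of them. Their folds ranged from 5.04 to 16.3, with a median of 13.2. The summits came as 5 close doublets and 1 single region, with 5 short spacings of 640 to 700 bp and 5 longer ones of 3222 to 4729 bp. One region of this run, chrX:56800215-56800477 at 11.04-fold, had 8 other CTCF summits within 10 kb.

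A run on chromosome 19 was evenly patterned over part of its length. At chr19:50594026-50669005 it held 27 CTCF regions over 74.7 kb, 10 of them members, 17 with TET1 and 9 of these with MBD3 as well. The 10 members stood at 5.73- to 9.43-fold, with a median of 6.53, and the other 17 regions at a median of 29.6-fold. From position 50607230 to 50637424, 13 regions in a row alternated between a strong region with TET1 and a weak member. The 7 strong regions had 24.6- to 40.2-fold, 5 of them with MBD3, and the 6 weak members between them had 5.73- to 8.98-fold. The step from a member to the next strong region was 1963 to 1993 bp each time, and the step from 1 member to the next was 5320 to 5366 bp. In the same run 3 more weak regions, at 3.83-, 4.61- and 7.13-fold, carried TET1 and so were no members. The region chr19:50608297-50608666, at 8.30-fold, had 9 other CTCF summits within 10 kb, the most of any member, and chr19:50613748-50614024, at 5.95-fold, had 8. The sequence of this stretch was not analysed here.

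The third run, at chr17:61926246-61996943, showed no such order. It held 13 CTCF regions over 70.1 kb, of which 8 were members at 4.07- to 20.1-fold and 5 carried TET1 at 13.7- to 31.5-fold, with none for MBD3 or TET2. Spacings ran from 892 to 9066 bp. Among runs of members alone, the next longest held 6 regions at chr21:28206522-28222795, at 3.43- to 16.6-fold, and 5 regions at chr7:149484688-149508611, at 3.88- to 21.4-fold. None of the regions of these 5 runs was called in any list with IAA. Over all CTCF regions the shares called were 0.128% for CTCF, 0.106% for TET1, 0.0709% for TET2 and 0.0142% for MBD3. With shares so low, a count of none in so few regions is no finding.

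**Figure D4:**
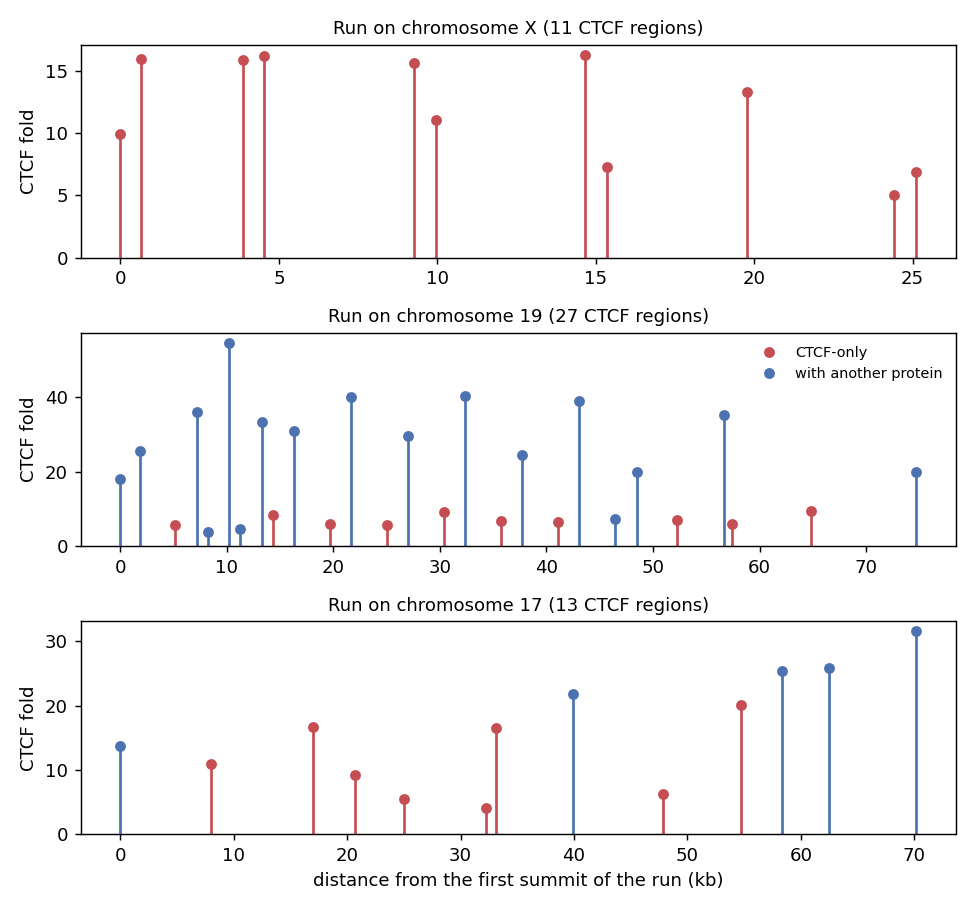
CTCF fold without IAA (y axis) of each region against its distance from the first summit of the run (x axis, kb), for the 3 runs with most dense CTCF-only regions. The run on chromosome X holds 11 members, 10 of them in doublets 640 to 700 bp apart, that on chromosome 19 alternates, over 13 regions, weak members with strong regions that carry another protein, and that on chromosome 17 has no even spacing.

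Members were spread unevenly along the genome. They made up 31.1% (29.0% to 33.4%) of the 1738 CTCF regions on chromosome 19, 29.2% on chromosome 22 and 28.0% on chromosome 16. The lowest shares were 17.2% (13.7% to 21.2%) of 413 on chromosome 21 and 18.2% (16.5% to 20.0%) of 1978 on chromosome 10. Per Mb of the chromosome, up to its highest listed position, there were 9.15 members on chromosome 19 and 6.70 on chromosome 17, against 1.48 on chromosome 21 and a median of 3.05 over 23 chromosomes. Chromosomes dense in CTCF had larger shares of members, with a Spearman's rho of 0.630 over the 23 chromosomes, given as a description because the 10 kb condition itself depends on density. The median fold of members varied from 8.04 on chromosome 10 to 10.1 on chromosome 15 and was below that of isolated CTCF-only regions on 18 of 23 chromosomes.

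**Figure D5:**
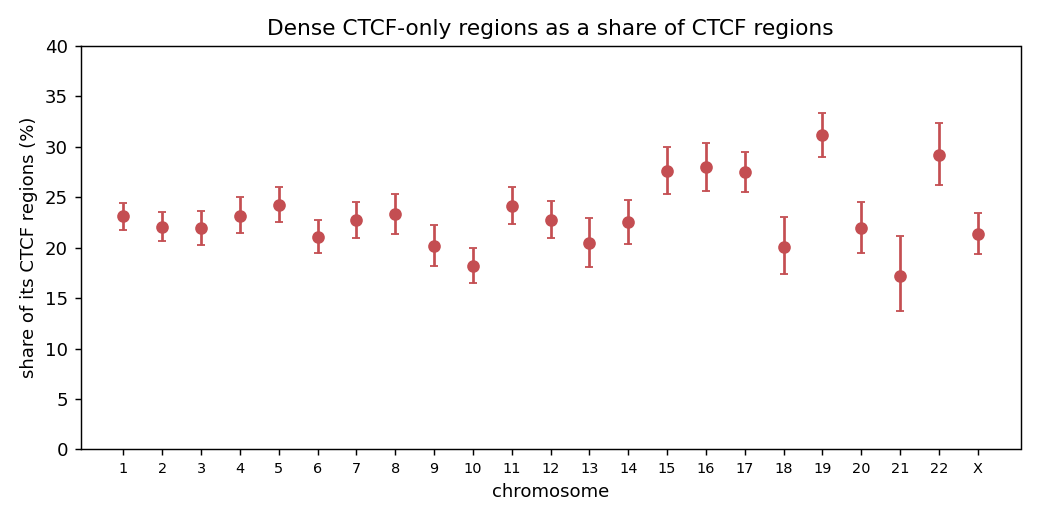
Dense CTCF-only regions as a share of the CTCF regions of each chromosome (percent, with exact 95% binomial intervals as bars). Chromosome 19 stands highest at 31.1%, and chromosome 21 lowest at 17.2%.

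Because members need a CTCF neighbour within 10 kb, the rule itself gathers them where CTCF regions are dense, and their spread over windows of 1 Mb is a description. They occurred in 2144 of 3049 windows, or 70.3%, while isolated CTCF-only regions occurred in 93.5%. The tenth of windows richest in members held 35.9% of them, beside 20.0% of isolated CTCF-only regions and 24.8% of all CTCF regions in the windows richest in each. The fullest window, from 140 to 141 Mb on chromosome 5, held 41 members among 63 CTCF regions, 15 of which carried TET1 and 3 MBD3. Its members had a median of 12.0-fold. By general knowledge, not from an annotation used here, this stretch holds the clustered protocadherin genes, a family with many alternative promoters that bind CTCF. All windows named were picked after their counts were seen. The 4 that followed had 24 to 26 members each and lay from 56 to 57 Mb on chromosome 12, 30 to 31 Mb on chromosome 16, 54 to 55 Mb on chromosome 19 and 7 to 8 Mb on chromosome 17. Within 5 Mb of a chromosome end lay 10.4% (9.76% to 10.98%) of members, 8.28% (7.88% to 8.70%) of isolated CTCF-only regions and 9.19% of all CTCF regions. Regions with a close neighbour and another protein had a share close to that of the members, 10.3% (9.56% to 11.03%).

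No member was called with the CTCF antibody in cells with IAA. Of 9846 members 0 shared a base with the 63 CTCF regions of that list, which allows a share of up to 0.0305% for 3 counts, or 0.0375% by the exact interval, beside 0.128% of all 42300 CTCF regions. Of isolated CTCF-only regions 2 of 17278 were called, at chr1:57433770-57434296 with 33.9-fold and chr12:298397-298629 with 8.93-fold. Of the regions with another protein 28 of 6694 with a close neighbour and 24 of 8482 isolated ones were called. Members were weaker than regions with another protein, so the count was also taken among strong regions. At a fold of at least 20, 0 of 980 members were called, which allows up to 0.306% for 3 counts, or 0.376% by the exact interval. Of isolated CTCF-only regions above the same floor, 1 of 1916 was called. With another protein, 21 of 5029 regions with a close neighbour, or 0.418% (0.259% to 0.638%), and 21 of 6438 isolated ones, or 0.326% (0.202% to 0.498%), were called. The members' exact upper limit lies within both of these intervals, and a difference among strong regions was not tested. The floor of 20 did not make the classes equally strong. The 99th percentile of fold over all members was 31.8. With another protein it was 65.6 for regions with a close neighbour and 68.7 for isolated ones. The nearest CTCF region was called with the CTCF antibody with IAA for 7 members, or 0.0711%. That share was 0.128% over all CTCF regions and 0.169% over those with a close neighbour.

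The other lists with IAA touched few members. MBD3 with IAA was called at 0 of 9846 members, beside 0.0142% of all CTCF regions, which is 6 regions. The exact upper limit for the members, 0.0375%, lies above that share, so the count shows no difference. TET1 with IAA was called at 3 members, or 0.0305% (0.00628% to 0.0890%), beside 0.106%. These were chr14:74684368-74684723 at 24.4-fold CTCF without IAA, chr6:106782991-106783218 at 15.7-fold and chr6:43021474-43021635 at 2.66-fold. In the TET1 list with IAA they stood at 3.98-, 6.07- and 4.81-fold, with summits 29, 83 and 101 bp from the CTCF summit. The member chr14:74684368-74684723 also had the highest −log10 q of all members, 198.5.

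TET2 with IAA was called at 6 members, or 0.0609% (0.0224% to 0.133%), beside 0.0709% of all CTCF regions. They were chr9:92861695-92861898 at 7.74-fold CTCF without IAA, chr17:76972103-76972316 at 5.85, chr14:44010261-44010446 at 5.09, chr11:66138810-66139026 at 4.84, chr14:74416686-74417184 at 3.54 and chr10:72300351-72300509 at 3.42. All 6 lay under the members' median fold. In the TET2 list with IAA they stood at 3.96- to 6.39-fold, and their summits were 32 to 117 bp from the CTCF summit. No member was called with both TET1 and TET2. The TET2 list with IAA, of 3022 regions, came within 10 kb of 247 members, or 2.51%, beside 2.05% of isolated CTCF-only regions. With another protein the share was 3.18% for regions with a close neighbour and 2.68% for isolated ones. The members' share thus lay within the range of the other classes.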

How the data were processed

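The values are from 8 peak lists, 1 for each of 4 antibodies with and without IAA. Per the labels, each deposited list belongs to all 3 samples of a group together, and it was taken as pooled. The submitters' processing notes list MACS2 2.1.2, Bowtie2 2.3.4, bedtools 2.25.0, FastQC 0.11.7 and SAMtools 1.9, and hg19 as the build, with no role stated for any of them. The sources used here do not give the control behind a list. The fold enrichment (a ratio), the −log10 q-value and the summit offset are the authors' deposited values per peak and were used only within 1 list. The highest q was 0.0497.

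Rows sharing 1 bp were joined, keeping the highest fold and highest −log10 q found among them, with the summit taken from the most significant row. Neighbours were sought among all CTCF regions of the list without IAA. Intervals of shares are exact (Clopper-Pearson, two-sided) at 95%, with a limit of 3 counts also given for a count of 0, and those of medians are binomial intervals of order statistics. No test was run, since regions are not replicates. Python 3.11.15, numpy 2.4.6, pandas 2.3.3 and scipy 1.17.1 were used, and the region classes were tested on simulated data. The alternatives were other windows, thresholds on −log10 q or fold, single rows, a margin of 1 kb to other proteins, gaps between edges, and neighbours within 1 kb left out. Named regions are the strongest, most crowded and closest members, the runs with most members, those nearest the 10 kb limit every member called with IAA and the strongest beside MBD3 and TET1. The members and lists were chosen with earlier results of these data known. The sequence of hg19 and genes at the regions were not analysed here.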

Additional observations from a re-analysis of the deposited data

How the results depend on the processing

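Of 45 values recomputed under 9 alternatives, 22 stayed within the counting interval, or within 1.5 times the count, and 23 moved. The share of members called with the CTCF antibody with IAA was 0 in every alternative except a window of 20 kb (0.00673%, 1 region). A window of 5 kb gave 5943 members and one of 20 kb gave 14862, with median folds of 8.72 and 9.16 and median distances of 2222 and 6701 bp. Their construction sets these distances. With −log10 q of at least 5 the median fold was 10.09 and the distance 4094 bp. At 10 or more they were 12.9 and 4271 bp, with 33.3% of neighbours carrying TET1. With fold of at least 5 they were 10.98 and 4181.5 bp, with 35.1%. Single rows gave 8.78, 3600 bp and 34.7%. With no other protein within 1 kb they were 9.25, 4282.5 bp and 33.7%. Gaps between edges gave 3774 bp. Without neighbours within 1 kb the fold was 9.21 and the distance 4568 bp. The members' median fold was below that of isolated CTCF-only regions in 8 of the 9 alternatives, and above it with fold of at least 5. The cause was not tested. No paired analysis was possible because each list pools the 3 samples of a group. Read depth is unknown, and it limits which weak MBD3, TET1 and TET2 regions could be called and so which regions count as CTCF-only.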
